A study of Mus musculus with 5 samples.

Results

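The two-cell-like state genes described here are Zscan4b, Zscan4c, Zscan4d, Zscan4e, Zscan4f, Tcstv1, Tcstv3, and Zfp352, 8 genes chosen by symbol as known markers of this state, by a rule that uses no measured value but was written with earlier results of these data known. Of these, 7 had a row in both expression tables, out of 24421 genes in all, and Zscan4e had none, so it was not analysed here. Transcript levels were measured by RNA-seq in 5 mouse libraries, 1 per group. They were mouse embryonic fibroblasts (MEFs), which the study took from CF-1 embryos at day E13.5, induced pluripotent stem cells (iPSCs), and untreated mESCs of the V6.5 line, followed by V6.5 cells stably expressing either a nontargeting control shRNA (NTC) or an shRNA against Gldc (shGldc). The labels describe feeder-independent culture of the iPSCs and mESCs on gelatin with LIF, and the knockdown was represented by a single shRNA. With 1 library per group, no replicate error or test could be given, and neighbouring levels in any order below cannot be told from variation between libraries. Gldc, which encodes the glycine decarboxylase of the glycine cleavage system, had an FPKM (the number of fragments, scaled to transcript length and library size) of 0.123 in MEFs, 70.8 in iPSCs, 59.7 in untreated V6.5 cells, 74.7 in NTC cells, and 2.07 in shGldc cells.

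A small and changing share of mESCs in culture passes through a state in which transcripts of the two-cell embryo, the stage at which the mouse zygotic genome is activated, reappear. The Zscan4 genes encode SCAN and zinc finger proteins known for their transient expression in this state and for a role in telomere maintenance. Tcstv1 and Tcstv3 belong to a family of variable two-cell transcripts, and Zfp352 is a zinc finger gene of the two-cell embryo. The transcription factor Dux is known to switch on these genes, Dppa2 and Dppa4 are known to act upstream of Dux, and chromatin repressors such as Trim28, Setdb1, and Kdm1a are known to restrain the state. In whole-culture RNA, more cells in this state and more RNA per such cell cannot be told apart.

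The Zscan4 genes lie side by side in GRCm38 (mm10). Zscan4a to Zscan4f, 6 genes, occupy 608 kb of chromosome 7 from 10794242 to 11402318. Among the members, Zscan4b (10900740 to 10905050), Zscan4d (11161374 to 11166159), and Zscan4e (11306378 to 11310682) lie on the minus strand, and Zscan4c (11005745 to 11010547) and Zscan4f (11397915 to 11402318) on the plus strand. The Tcstv genes form a second cluster with AF067061 and AF067063, 4 genes within 490 kb of chromosome 13, with Tcstv1 on the minus strand (119893388 to 119894785) and Tcstv3 on the plus strand (120316878 to 120318178). Zfp352 lies alone on chromosome 4 (90218820 to 90225702, plus strand). No member overlaps another annotated gene.

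The bases before the annotated starts of the Zscan4 genes are nearly the same when aligned on a TATA box motif. They are shown because these genes are read as a group in what follows. RefSeq promoter sequences (GRCm38.p6) were found for 5 of the 8 members. The windows have 91 bases, and those of the Zscan4 genes were cut around the TATA box motif TATAAA, marked by capitals. They end directly before the start for Zscan4b and Zscan4f, and 24 and 35 bases before it for Zscan4c and Zscan4d. Zfp352, in whose promoter this motif was not found, is given for comparison with the 91 bases directly before its start and no capitals.
Zscan4b, chr7:10905051-10905141, minus strand: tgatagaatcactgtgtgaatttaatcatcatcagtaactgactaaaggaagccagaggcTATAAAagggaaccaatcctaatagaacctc
Zscan4c, chr7:11005631-11005721, plus strand: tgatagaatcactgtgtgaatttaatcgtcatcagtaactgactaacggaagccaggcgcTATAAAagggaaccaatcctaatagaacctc
Zscan4d, chr7:11166183-11166273, minus strand: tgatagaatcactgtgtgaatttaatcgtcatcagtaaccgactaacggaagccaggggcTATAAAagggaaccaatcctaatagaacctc
Zscan4f, chr7:11397824-11397914, plus strand: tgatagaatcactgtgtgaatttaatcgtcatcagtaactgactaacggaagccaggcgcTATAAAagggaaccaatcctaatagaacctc
Zfp352, chr4:90218729-90218819, plus strand: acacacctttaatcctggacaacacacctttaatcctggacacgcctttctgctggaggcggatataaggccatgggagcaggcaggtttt

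The Zscan4c and Zscan4f windows were identical over all 91 bases, Zscan4d differed from either at 2 bases, and Zscan4b differed from each of the others at 4. In all, 5 of the 91 positions varied among the 4 genes. The motif began 31 bases before the RefSeq start of Zscan4b and Zscan4f, 54 before that of Zscan4c, and 65 before that of Zscan4d. TATAAA occurred on either strand in 13.6% of 32851 RefSeq promoters of 300 bases (250 before and 50 after the start), and in 4 of the 5 member promoters. The Dux motif GATTNAATC was in none of the 5 and in 0.268% of all promoters. It was found in the promoter of the Tcstv family gene AF067061, as GATTTAATC. The Zscan4 motif TGCACAC was in none of the 5 and in 4.4% of all promoters. A match describes these letters in this window only.

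Because the copies are so alike, reads can be shared between them. Of the 50-nt stretches of the annotated transcripts, 90.1% of those of Zscan4b, 85.5% of Zscan4c, 49.6% of Zscan4d, and 86.8% of Zscan4f also occurred in transcripts of other genes, mainly the other Zscan4 copies. The share was 15.0% for Tcstv1, 31.4% for Tcstv3, and 7.09% for Zfp352. Zscan4d therefore had the most sequence of its own among the Zscan4 genes, and Zfp352 the most of all members. Single Zscan4 values are uncertain for this reason, and the sum of Zscan4b, Zscan4c, Zscan4d, and Zscan4f is given beside them.

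The libraries were also read for markers of other cell types. Of 8 fibroblast markers, summing to 8200 in MEFs, most of the sum in the pluripotent libraries was Fn1, and the other 7 summed to 11.8 in iPSCs, 47.6 in untreated V6.5 cells, 8.56 in NTC cells, and 3.22 in shGldc cells. Untreated V6.5 cells stood apart, with the collagen gene Col1a1 at an FPKM of 20.5 (1.68 in iPSCs, 1.24 in NTC, and 0.125 in shGldc cells) and Col1a2 at 15.3 (0.857, 0.225, and 0.621). Col3a1 and Postn were at 3.21 and 1.66 in untreated V6.5 cells and listed at 0 in both shRNA libraries. Of 6 fibroblast markers past the filter used below, 4 were at least 2-fold lower in NTC than in untreated V6.5 cells, and 4 of 6 were in iPSCs (all genes, 10.3% and 7.44%). In each of these comparisons 3 of the 6 had an FPKM of at least 1 in both libraries, and 1 of these was lower. In shGldc over NTC, 2 of 4 were lower, Thy1 (6.95 in NTC and 1.11 in shGldc cells) and Col1a1, and 1 was higher, Pdgfra (0.143 and 1.36). Among all genes 7.68% were lower and 8.97% higher there, and of the 4 markers only Thy1 and Fn1 had an FPKM of at least 1 in both libraries.

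Markers of differentiated cells went in both directions. Of a list of 9, none was at 0 in the pluripotent libraries. In the order iPSCs, untreated V6.5, NTC, and shGldc cells, Cdx2, a trophectoderm factor, had an FPKM of 3.34, 0.274, 5.41, and 33.3, Gata6, an endoderm factor, 4.46, 0.646, 0.462, and 8.22, and Sox1, a neural factor, 1.66, 7.62, 1.43, and 1.15. Counting differences of at least 2-fold among those past the filter, 3 of 6 were higher and none lower in shGldc over NTC (all genes, 8.97% and 7.68%). In NTC over untreated V6.5 cells, 3 of 6 were higher and 2 lower (all genes, 4.99% and 10.3%). In shGldc over untreated V6.5 cells, 5 of 7 were higher and 2 lower (9.89% and 13.9%). In iPSCs over untreated V6.5 cells, 4 of 6 were higher and 2 lower (10.1% and 7.44%). Of the 5 with an FPKM of at least 1 in both shGldc and NTC cells, 2 were higher. In the comparisons with untreated V6.5 cells, only Gata4 and Sox1 reached this level in both libraries. All 8 pluripotency markers had an FPKM of at least 83.7 in the pluripotent libraries. Without Dppa5a, which alone had 4146 in untreated V6.5, 1440 in NTC, and 1792 in shGldc cells, the other 7 summed to 2877, 2855, and 1961 in this order, and the median log2 ratio of all 8 was -0.56 in shGldc over NTC. The part of these differences in the levels of the members was not tested.

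The members were nearly absent from MEFs, present at low levels in iPSCs and untreated V6.5 cells, lower again in NTC cells except for Zfp352, and highest in shGldc cells. The summed Zscan4 FPKM was 0.0228 in MEFs, 4.65 in iPSCs, 13.1 in untreated V6.5 cells, 1.87 in NTC cells, and 37.5 in shGldc cells. The summed Tcstv1 and Tcstv3 FPKM was listed at 0 in MEFs and was 1.62 in iPSCs, 2.57 in untreated V6.5 cells, 0.151 in NTC cells, and 4.0 in shGldc cells. Both families thus had the same order of libraries, with shGldc cells at the top and NTC cells the lowest of the pluripotent libraries. The first 3 libraries are in 1 table and the last 2 in another made separately, so levels set across the tables carry this further uncertainty.

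**Figure D1:**
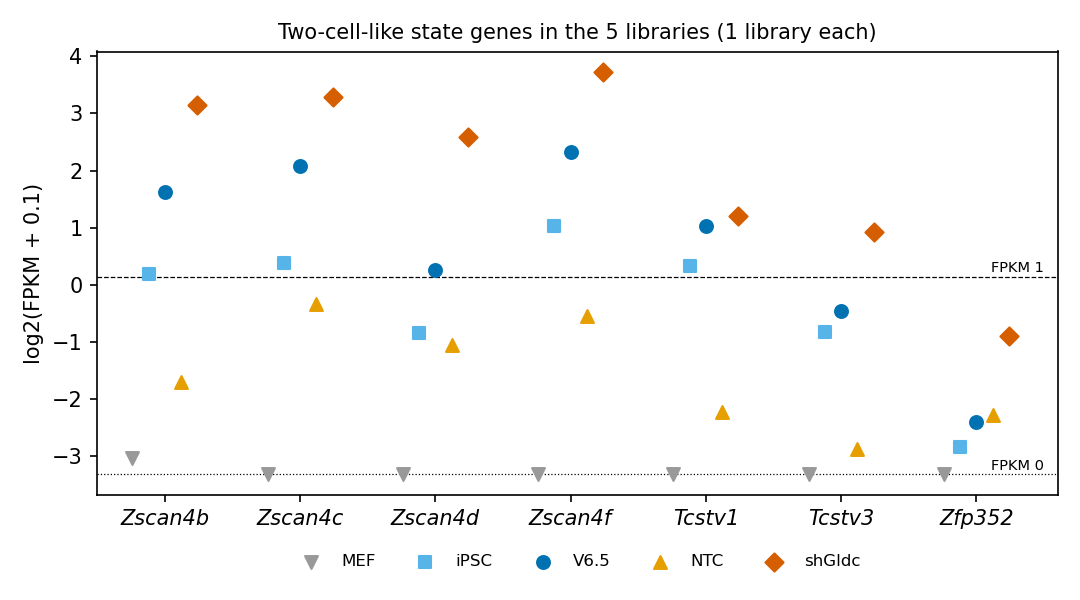
Level of each member as log2(FPKM + 0.1) on the vertical axis, by gene on the horizontal axis, with 1 point per library. The dotted line marks an FPKM of 0 and the dashed line an FPKM of 1. The shGldc library lies highest for all 7 genes, up to an FPKM of 13.2 for Zscan4f, and the MEF library lies at 0 for 6 of them.

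Among the single Zscan4 genes, Zscan4f, a copy with 4 exons as in the rest of the family, had the highest level in shGldc cells. Its FPKM was listed at 0 in MEFs and was 1.94 in iPSCs, 4.89 in untreated V6.5 cells, 0.589 in NTC cells, and 13.2 in shGldc cells. Zscan4c, the copy best known from work on mESCs, was listed at 0 in MEFs and had an FPKM of 1.21 in iPSCs, 4.13 in untreated V6.5 cells, 0.694 in NTC cells, and 9.71 in shGldc cells. These copies were the highest members in each of the 4 pluripotent libraries, and Zscan4c passed Zscan4f only in NTC cells.

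Zscan4d, the copy known from the two-cell embryo itself, was listed at 0 in MEFs and had an FPKM of 0.459 in iPSCs, 1.10 in untreated V6.5 cells, 0.382 in NTC cells, and 5.90 in shGldc cells. Zscan4b had an FPKM of 0.0228 in MEFs, 1.05 in iPSCs, 2.99 in untreated V6.5 cells, 0.208 in NTC cells, and 8.73 in shGldc cells. The value of Zscan4b in MEFs corresponds to about 1 fragment at the estimated depth and was the only nonzero value of a member in that library. The range within the family in shGldc cells was thus from 5.90 to 13.2.

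The Tcstv genes were lower than the summed Zscan4 genes in every pluripotent library. Tcstv1 was listed at 0 in MEFs and had an FPKM of 1.16 in iPSCs, 1.94 in untreated V6.5 cells, 0.115 in NTC cells, and 2.2 in shGldc cells. Tcstv3 was listed at 0 in MEFs and had an FPKM of 0.464 in iPSCs, 0.632 in untreated V6.5 cells, 0.0367 in NTC cells, and 1.80 in shGldc cells. Tcstv1 in shGldc cells was hardly above its level in untreated V6.5 cells, whereas Tcstv3 was higher.

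Zfp352 stayed under an FPKM of 1 in all 5 libraries. It was listed at 0 in MEFs and had an FPKM of 0.0400 in iPSCs, 0.0893 in untreated V6.5 cells, 0.107 in NTC cells, and 0.439 in shGldc cells. It was the one member for which NTC cells were not below untreated V6.5 cells. Its values correspond to about 2.01 fragments in iPSCs, 5 in untreated V6.5 cells, 7.08 in NTC cells, and 28.9 in shGldc cells, so that its order outside shGldc cells rests on few fragments.

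The depth behind these levels was read from low FPKM values, as the step with the most values at its low multiples within a preset range. This depth came to 24600000 fragments for MEFs, 22100000 for iPSCs, 24600000 for untreated V6.5 cells, 29100000 for NTC cells, and 28900000 for shGldc cells. The values at such multiples were 104 of 806 in MEFs, 129 of 877 in iPSCs, and 104 of 823 in untreated V6.5 cells. They were 25 of 390 in NTC and 32 of 366 in shGldc cells. The depth of the last 2 libraries is uncertain by a factor of 2. At these depths, the 7 members together held about 246 fragments in iPSCs, 722 in untreated V6.5 cells, 125 in NTC cells, and 2324 in shGldc cells. A floor of 3 fragments corresponded to an FPKM of 0.0536 to 0.157 in MEFs, depending on the gene's length, and all 7 members were at or under it there. Zfp352 in iPSCs and Tcstv3 in NTC cells were also under it. These floors cover counting error only.

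The share of Zscan4b in the summed Zscan4 FPKM was close in iPSCs, untreated V6.5 cells, and shGldc cells, and those of the other copies differed more. Zscan4b made up 22.5% of the sum in iPSCs, 22.8% in untreated V6.5 cells, and 23.3% in shGldc cells, and Zscan4f 41.7%, 37.3%, and 35.1% in the same order. In NTC cells, with the lowest sum of the 4, Zscan4b made up 11.1% and Zscan4d 20.4%. Zscan4d otherwise made up 9.87% of the sum in iPSCs, 8.39% in untreated V6.5 cells, and 15.7% in shGldc cells, and Zscan4c between 25.9% and 37.1% in the 4 libraries. The part that the assignment of shared reads had in these shares was not tested.

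The comparison of shGldc with NTC cells addresses which transcripts differed when Gldc was suppressed. In it, the members were among the genes with the highest ratios. Ratios are given as log2 of (FPKM + 0.1), a scale that understates the change of low genes, for genes that reached an FPKM of 1 in 1 or both libraries compared, and a difference of at least 2-fold on this scale is counted. Of the 7 members in the tables, 6 passed this filter and all 6 were at least 2-fold higher in shGldc cells. Among all 11969 genes past the filter, 8.97% were higher by this much and 7.68% lower. All 6 members passed through their shGldc level alone and had to differ to some extent. Of genes in the FPKM range of the members in their higher library, 11.4% were at least 2-fold higher. Those genes could pass through both libraries, so this share does not remove the limit set by the filter. The median log2 ratio was 3.72 for the 6 members and 0.04 for all genes, and 2.49 for the members with a pseudocount of 1. The limit set by the filter applies to this median and to the ranks below too, which are among all genes past the filter.

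By family, the summed Zscan4 FPKM was 20.1-fold higher in shGldc than in NTC cells (log2 ratio 4.25). The log2 ratio was 4.84 for Zscan4b (3.01 with a pseudocount of 1), 4.27 for Zscan4f, 3.64 for Zscan4d, and 3.63 for Zscan4c. Counted from the highest ratio, Zscan4b ranked at number 32, Zscan4f at 54, Zscan4d at 117, and Zscan4c at 119 of the 11969 genes. Zscan4d, with the most sequence of its own, was 15.5-fold higher, within the range of the other copies.

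The summed Tcstv FPKM was 26.5-fold higher (log2 ratio 4.03), but against an NTC level of few fragments. Tcstv1 had a log2 ratio of 3.43 (rank 140, and 1.52 with a pseudocount of 1), with about 4.27 fragments in NTC cells and 81.5 in shGldc cells. Tcstv3 had a log2 ratio of 3.80 (rank 97), with about 0.832 fragments in NTC cells, under the floor, and 40.5 in shGldc cells. This ratio was 1.43 with a pseudocount of 1 and 5.28 with 0.01. No fold is given for Tcstv3. Zfp352, which did not pass the filter, had a log2 ratio of 1.38.

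The size of this difference depended on the control library. Against untreated V6.5 cells, which are in the separately made table and lack the shRNA vector, the summed Zscan4 FPKM of shGldc cells was 2.86-fold higher (log2 ratio 1.51) and the summed Tcstv FPKM 1.56-fold higher (log2 ratio 0.62). The log2 ratio was 2.32 for Zscan4d, 1.51 for Zscan4b, 1.41 for Zscan4f, 1.38 for Tcstv3, 1.21 for Zscan4c, and 0.18 for Tcstv1. Of 6 members past the filter, 5 were at least 2-fold higher, all but Tcstv1, with 9.89% of all 12237 genes at least 2-fold higher and 13.9% lower. Tcstv3 passed only through its shGldc level, 4 of the 5 members with an FPKM of at least 1 in both libraries were at least 2-fold higher, and 10.8% of genes in the FPKM range of the members were. All 7 members in the tables were thus above both control libraries, by very different factors, and Tcstv1 was close to its level in untreated V6.5 cells.

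The difference between these figures is the difference between the NTC and untreated V6.5 libraries, again across the tables. The summed Zscan4 FPKM was 7.01-fold lower in NTC than in untreated V6.5 cells (log2 ratio -2.74), and the summed Tcstv FPKM 17.0-fold lower (log2 ratio -3.41, and -1.63 with a pseudocount of 1), against about 4.27 fragments of Tcstv1 and 0.832 of Tcstv3 in NTC cells. All 5 members past the filter were at least 2-fold lower, with log2 ratios of -3.33 for Zscan4b, -3.25 for Tcstv1, -2.86 for Zscan4f, -2.41 for Zscan4c, and -1.32 for Zscan4d. With a pseudocount of 1, the count of 5 became 4, as Zscan4d was at -0.60, and Zscan4b was at -1.73 and Tcstv1 at -1.40. Of all 12048 genes past the filter, 10.3% were lower by this much and 4.99% higher, and of genes in the FPKM range of these members 18.9% were at least 2-fold lower. All 5 members passed through their level in untreated V6.5 cells alone, as all were under an FPKM of 1 in NTC cells. These comparisons share libraries, so a low value in NTC cells enters both of them. The shRNA vector, the table, and the culture cannot be told apart between NTC and untreated V6.5 cells.

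**Figure D2:**
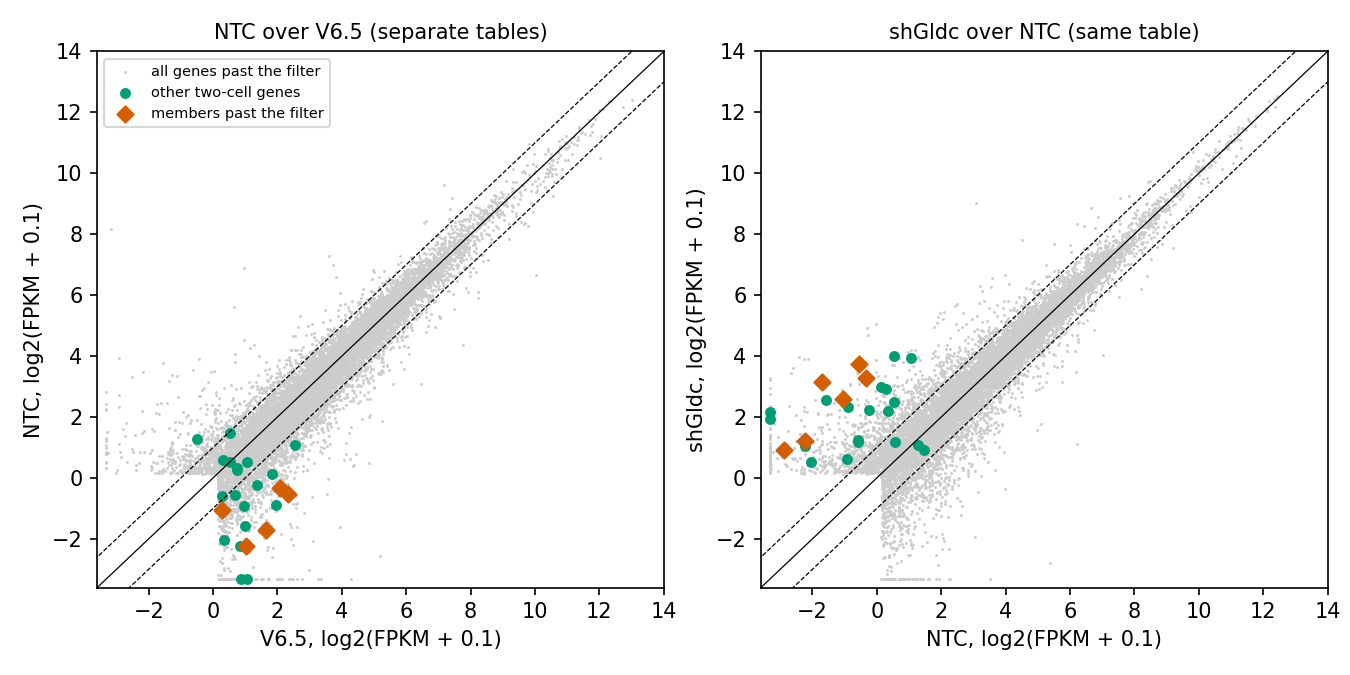
Level of every gene that passed the filter, as log2(FPKM + 0.1), in NTC against untreated V6.5 cells (left) and in shGldc against NTC cells (right), with lines at equal levels (solid) and at 2-fold differences (dashed). Diamonds are members, green points other two-cell genes, and grey points all genes. The members lie under the lower dashed line on the left, with log2 ratios from -3.33 to -1.32, and above the upper one on the right, from 3.43 to 4.84.

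The comparison of iPSCs with untreated V6.5 cells is within 1 table and asks how far the induced cells share the transcripts of mESCs. The members were lower in iPSCs. The summed Zscan4 FPKM was 2.82-fold lower (log2 ratio -1.48) and the summed Tcstv FPKM 1.58-fold lower (log2 ratio -0.63). Of 5 members past the filter, 4 were at least 2-fold lower, with log2 ratios of -1.70 for Zscan4c, -1.43 for Zscan4b, -1.29 for Zscan4f, and -1.10 for Zscan4d, and Tcstv1 was at -0.69. Zscan4d passed only through untreated V6.5 cells, and of the 4 with an FPKM of at least 1 in both libraries 3 were at least 2-fold lower. With a pseudocount of 1, the count of 4 became 2. Among all 12323 genes, 7.44% were lower by this much and 10.1% higher, and among genes in the FPKM range of the members 10.7% were at least 2-fold lower. The marker values of both libraries are given above, among them Col1a1 12.3-fold lower and Cdx2 12.2-fold higher in iPSCs.

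MEFs are the somatic cells of the series. All 5 members past the filter were at least 2-fold higher in untreated V6.5 cells than in MEFs, with 30.3% of all genes, and all 4 past it were at least 2-fold higher in iPSCs, with 31.5% of all genes. These members passed only through the pluripotent library, so the calls followed from the filter, and among genes in their FPKM range 34.2% and 41.9% were at least 2-fold higher. No fold is given, since 6 of the 7 members were listed at 0 in MEFs. The median of all genes was itself higher by 0.25 in untreated V6.5 cells and by 0.31 in iPSCs on the log2 scale. Of the genes at least 2-fold apart in iPSCs and MEFs, 59.7% were higher in iPSCs, and 48.6% were after centring on the median. The MEF library had Col1a1 at an FPKM of 3672, and a summed FPKM of 3.28 over the 8 pluripotency markers.

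The other copies of the families were also highest in shGldc cells, except Gm20765. Zscan4a, which the annotation lists as a pseudogene, had an FPKM of 0.0180 in MEFs, 0.663 in iPSCs, 2.75 in untreated V6.5 cells, 0.860 in NTC cells, and 7.12 in shGldc cells. Its log2 ratio of shGldc over NTC was 2.91. AF067061 was listed at 0 in MEFs and had an FPKM of 0.179 in iPSCs, 1.21 in untreated V6.5 cells, 0.245 in NTC cells, and 3.28 in shGldc cells, with a log2 ratio of 3.29. AF067063 stayed under 1 everywhere, with 0.320 in untreated V6.5 cells, 0.0195 in NTC cells, and 0.642 in shGldc cells. Gm20765 was listed at 0 in all 5 libraries. The 1 other Zscan4 copy and the 3 other Tcstv genes were those of 12 such symbols that had rows in the tables.

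Many other genes listed for the two-cell state were also higher in shGldc than in NTC cells. Of 42 such genes listed, 40 were in the tables, 8 of these were at 0 in every library, and 19 passed the filter in shGldc and NTC cells. Of the 19, 16 were at least 2-fold higher in shGldc cells, none was at least 2-fold lower, and their median log2 ratio was 2.57. Of these 19, 11 passed only through their shGldc level, and of the 8 with an FPKM of at least 1 in both libraries 5 were at least 2-fold higher. One of these, Gm20767, shares 50-nt stretches with Tcstv1, Tcstv3, and AF067061, so its reads may be shared with theirs. The 16 were not independent either, since 8 of them, Usp17la to Usp17le (5 genes) and Gm5662, Gm2016, and Gm8300 (3 genes), are copies that share such stretches within each group. Against untreated V6.5 cells, 9 of 19 were at least 2-fold higher, and the median was 0.90. In NTC over untreated V6.5 cells, 11 of 19 were at least 2-fold lower and 1, the homeobox gene Obox6, was higher, with a median of -1.48, and of the 7 with an FPKM of at least 1 in both libraries 1, Gm8994, was lower. In iPSCs over untreated V6.5 cells, 10 of 19 were at least 2-fold lower and 2 were higher, with a median of -1.04, but all 10 passed only through untreated V6.5 cells, and of the 6 with an FPKM of at least 1 in both libraries none was lower and 1 was higher. The percentages for all genes given above for each comparison apply here too.

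The highest ratios of shGldc over NTC in this list were those of Usp17lc, a deubiquitinase gene, and Gm8300, both without signal in the NTC library (listed at 0) and with an FPKM of 4.36 and 3.76 in shGldc cells. BC080695 followed, at 0.237 and 5.85, a 24.7-fold difference. The lowest were Zscan5b (2.66 in NTC and 1.78 in shGldc cells), Obox6 (2.32 and 1.99), and Zfp750 (1.39 and 2.16), none of which was 2-fold apart. In iPSCs over untreated V6.5 cells, the lowest were Gm8994 (0.521 and 5.76), Zscan5b (0.20 and 1.33), and Gm13119 (0.532 and 1.84), and the highest Zfp750 (5.67 and 1.14), Obox6 (1.90 and 0.606), and Tmem92 (2.57 and 1.99). Obox6 and Zfp750 were therefore among the lowest of the list in shGldc over NTC and the highest in iPSCs over untreated V6.5 cells. In shGldc over NTC, however, Zfp750 differed in the same direction as the members.

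**Figure D3:**
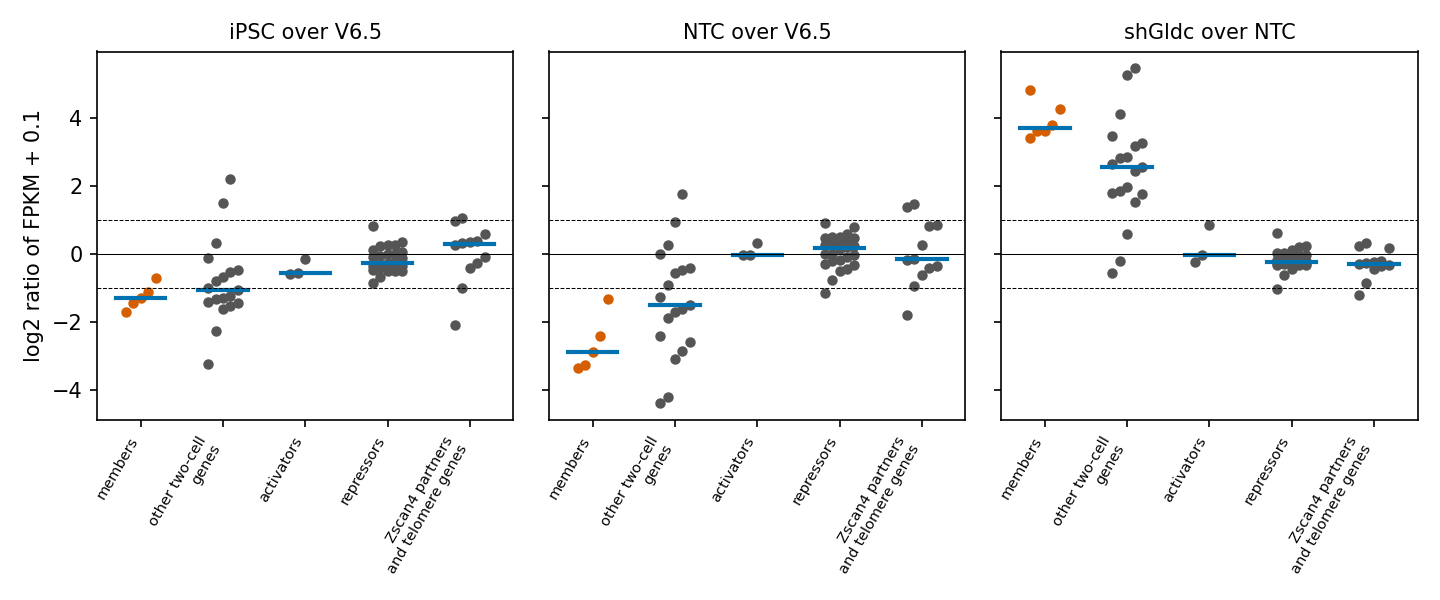
Log2 ratio of FPKM + 0.1 on the vertical axis for the genes of each list past the filter, 1 point per gene, with the list's median as a bar and 2-fold differences as dashed lines, in iPSCs over V6.5 cells, NTC over V6.5 cells, and shGldc over NTC cells. In shGldc over NTC the medians are 3.72 for the members, 2.57 for other two-cell genes, -0.02 for activators past the filter (without Dux), -0.22 for repressors, and -0.27 for Zscan4 partners and telomere genes.

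The known activators with an FPKM of at least 1 differed less between shGldc and NTC cells than the members. Of 8 listed, 7 were in the tables and 3 passed the filter, none of them 2-fold apart in shGldc and NTC cells. Dppa2 was listed at 0 in MEFs and had an FPKM of 48.2 in iPSCs, 71.95 in untreated V6.5 cells, 71.5 in NTC cells, and 131.3 in shGldc cells, a 1.84-fold difference between the last 2. Its partner Dppa4 had 0.0606, 63.0, 92.5, 91.9, and 78.6 in the same order, so the pair differed in direction in shGldc cells. Dppa2 shares 29.1% and Dppa4 31.3% of their 50-nt stretches with other genes, mainly pseudogenes. Nelfa, a subunit of the negative elongation factor, had 17.7, 39.0, 42.5, 54.1, and 53.5.

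Dux, the factor with the motif named above, did not pass the filter in any library. It was listed at 0 in MEFs and had an FPKM of 0.702 in iPSCs, 0.722 in untreated V6.5 cells, 0.152 in NTC cells, and 0.902 in shGldc cells, with a log2 ratio of 1.99 in shGldc over NTC (5.95-fold). Dux was therefore lowest in NTC cells among the pluripotent libraries, as the Zscan4 and Tcstv genes were, and its iPSC and untreated V6.5 levels were close. No Dux transcript was found under this name in the annotation used here. Its fragments and shared sequence could not be estimated, so its fold rests on a low NTC level of unknown fragment number. Duxbl1, Duxbl2, and Duxbl3, related homeobox genes, were all at or under an FPKM of 0.279 in every library.

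The repressors of the state were present in every pluripotent library and differed little. All 26 listed genes passed the filter in shGldc and NTC cells. Their median log2 ratio was -0.22, and 1 was at least 2-fold lower and none higher (all genes, 7.68% and 8.97%). That gene was Sumo2, which encodes a SUMO protein, at an FPKM of 125.8 in NTC and 62.2 in shGldc cells (log2 ratio -1.02). The next lowest were Ep400 (-0.60), a chromatin remodeller, and Mga (-0.42), and the highest were E2f6 (0.65), Zmym2 (0.25), and Kat5 (0.21). In NTC over untreated V6.5 cells, 1 repressor, Smchd1 (3.91 and 8.66), was at least 2-fold lower and none higher (all genes, 10.3% and 4.99%), with a median of 0.20. In shGldc over untreated V6.5 cells, 2 were at least 2-fold lower, Sumo2 (2.74-fold) and Smchd1 (2.26-fold), and none higher (all genes, 13.9% and 9.89%). In iPSCs over untreated V6.5 cells, none was 2-fold apart, with Zfp42 (-0.84), Chaf1b (-0.65), and Smchd1 (-0.49) lowest and E2f6 (0.83), Trim28 (0.36), and Max (0.27) highest.

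Of the genes that act with Zscan4 or at telomeres, 1 was at least 2-fold apart in shGldc over NTC, and more were against untreated V6.5 cells. Of 13 listed, 12 passed the filter in shGldc and NTC cells. Their median log2 ratio was -0.27, and 1 was at least 2-fold lower, near the share of all genes, and none higher (all genes, 7.68% and 8.97%). That gene was Tet1, a methylcytosine dioxygenase, at an FPKM of 6.86 in NTC and 2.96 in shGldc cells (log2 ratio -1.19). The RecQ helicase gene Blm (-0.84) and the DNA methyltransferase gene Dnmt3a (-0.43) were next, and Tet3 (0.32), Terf2 (0.25), and Tbx3 (0.19) were highest. In NTC over untreated V6.5 cells, Tbx3 (1.49) and Dnmt3b (1.41) were at least 2-fold higher and Dmc1 (-1.77) lower (all genes, 4.99% and 10.3%). In shGldc over untreated V6.5 cells, 3 of 12 were at least 2-fold higher and 4 lower (all genes, 9.89% and 13.9%). In iPSCs over untreated V6.5 cells, Dnmt3a (-2.08) and the telomere repeat binding factor gene Terf1 (-1.002) were lowest, followed by Blm (-0.40), and Tet2 (1.08), Tbx3 (0.98), and the meiotic recombinase gene Dmc1 (0.61) were highest.

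The profile over the 5 libraries was compared with that of the summed Zscan4 genes for 13650 genes other than the members that reached an FPKM of 1 in any library, as the root mean square difference of mean-centred log2(FPKM + 0.1). The 5 nearest of these genes were H2-Bl (0.68), Gm5662 (0.71), Tmem92 (0.85), Cidea (0.85), and Usp17le (0.85), against a median of 2.75 over all genes. Gm5662, Tmem92, and Usp17le are on the list of other two-cell genes, and H2-Bl, of the major histocompatibility complex, and Cidea, a lipid droplet gene, are not. H2-Bl had an FPKM of 2.88 in iPSCs, 9.84 in untreated V6.5 cells, 3.41 in NTC cells, and 15.8 in shGldc cells. Cidea had 4.30, 7.39, 6.26, and 42.7 in the same order, so its NTC level was near that of untreated V6.5 cells. All 5 were listed at 0 in MEFs. Gm5662 shares 77.9% and Usp17le 29.8% of their 50-nt stretches with other genes, H2-Bl 9.40%, Tmem92 1.93%, and Cidea none.

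**Figure D4:**
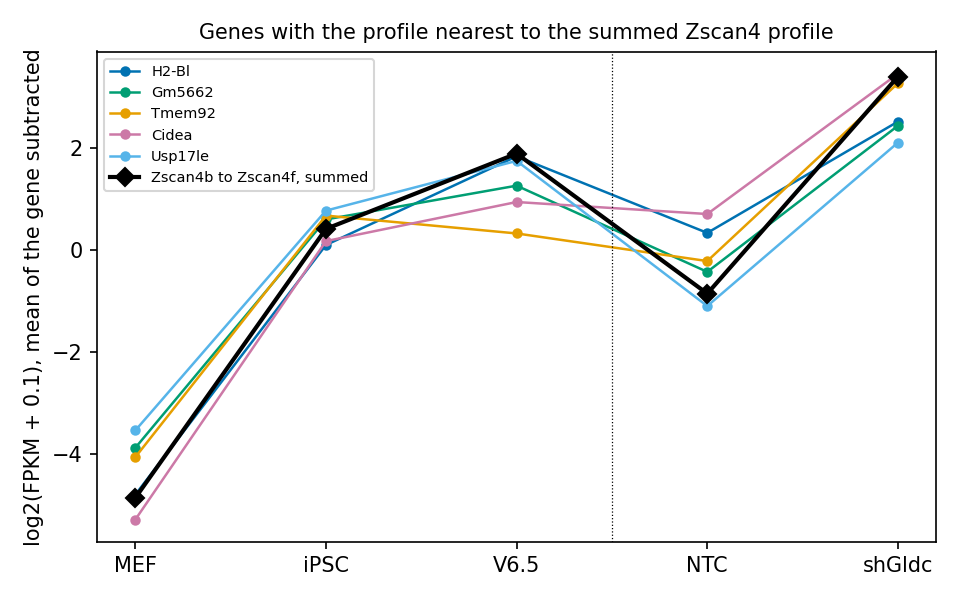
Level over the 5 libraries as log2(FPKM + 0.1) with each gene's mean subtracted, for the summed Zscan4 genes (black) and the 5 genes with the nearest profile. The dotted line separates the 2 tables, and the profiles differ most in NTC cells, where the FPKM was 6.26 for Cidea and 0.442 for Usp17le.

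By the same measure, Zscan4f (0.46), Zscan4c (0.60), Zscan4b (0.92), and Zscan4d (1.11), which are part of the sum, lay nearest to it among the members, followed by Tcstv1 (1.27) and Tcstv3 (1.49). Zfp352, at 2.21, was farthest from it among the members, and Dux was at 1.64.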

How the data were processed

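RNA-seq libraries were prepared with the NEBNext Ultra kit and sequenced by BGI on an Illumina HiSeq instrument. The authors mapped reads to mm10 with TopHat2 2.1.0 and assembled transcripts with StringTie 1.3.4d (versions from the submitters' processing notes, which also list SAMtools 1.7 and, beside mm10, the build mm9 without a role), and Ballgown gave gene levels. The authors deposited FPKM values in 2 separately made tables of 24421 genes. The annotation, strand setting, and filters are not given in the sources used here.

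From these values, log2(FPKM + 0.1) ratios were computed for genes reaching an FPKM of 1 in 1 or both libraries compared, without a test, since each group was 1 library. Depth was read from low FPKM values times transcript length over 5723 genes with a single transcript. The step with the most values near its low multiples was taken, within a preset range of steps. This estimate was tried only on simulated exact multiples without noise, where a depth lower by a factor of 2 was also accepted. That trial does not show how accurate the depths are in these libraries. Shared 50-nt stretches and positions came from GENCODE M21, and promoters from RefSeq (32851 sequences). The members and gene lists were chosen with earlier results of these data known. The genes named are the members, the targeted gene, the other family copies and activators, the 3 highest and 3 lowest of each further list in shGldc over NTC and in iPSCs over V6.5 cells, and the 5 nearest profiles. The cell type markers, Smchd1, and Dnmt3b were named after their values were seen. Alternatives were pseudocounts of 0.01 and 1, no filter or a minimum FPKM of 5, rescaling to equal FPKM sums, centring on the median, and paralogs summed to 3 units, and, chosen after seeing the data, untreated V6.5 cells as the control and a background limited to the members' FPKM range. Python 3.11.15, numpy 2.4.6, pandas 2.3.3, and matplotlib 3.10.9 were used.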

Additional observations from a re-analysis of the deposited data

How the results depend on the processing

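No paired analysis was possible because each group was 1 library. No ratio or count of the members changed direction under the alternatives run, but the split of all calls did: among genes at least 2-fold apart, 59.7% were higher in iPSCs than in MEFs, and 49.2% after rescaling and 48.6% after centring, and 56.5% were higher in untreated V6.5 cells, and 48.8% and 48.4% in the same order. All 60 results moved by less than the spread used here (0.60 on the log2 scale, a robust SD over all genes in NTC over V6.5, or 1.5 times for a count) after rescaling and after centring. With a pseudocount of 1, 37 of 60 moved further than that, and with 0.01, 25 of 60. The summed Zscan4 log2 ratio over MEFs was 3.79 and 8.64 for untreated V6.5 cells with pseudocounts of 1 and 0.01, and 2.47 and 7.15 for iPSCs. The summed Tcstv ratio over MEFs was 1.83 and 8.01 for untreated V6.5 cells, and 1.39 and 7.35 for iPSCs, in the same order. The summed Tcstv ratio of shGldc over NTC was 2.12 and 4.64, and that of NTC over untreated V6.5 cells was -1.63 with a pseudocount of 1. With this pseudocount, 2 members were at least 2-fold lower in iPSCs than in untreated V6.5 cells, and 4 were in NTC cells. With an FPKM of at least 5, no member passed the filter (a count of 0) in comparisons of MEFs, iPSCs, untreated V6.5, and NTC cells. With the paralogs summed to 3 units, 2 units (the Zscan4 and Tcstv sums) were at least 2-fold higher in untreated V6.5 cells and in iPSCs than in MEFs, and in shGldc than in NTC cells. With untreated V6.5 cells in place of NTC, the summed ratios were 1.51 (Zscan4) and 0.62 (Tcstv). Low depth limits Zfp352, Tcstv1, and Tcstv3 most, and without replicates no difference can be set against variation between cultures.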
